A study of Rattus norvegicus with 12 samples.

Results

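The regions described here carried an m6A peak in all 3 immunoprecipitated (IP) libraries from rat Barrett's esophagus (BE) tissue and in none of the 3 from normal control (NC) esophagus, on genes that had at least 1 peak somewhere in each of the 6 lists. Peaks of the 6 lists that overlapped by at least 1 bp were merged into regions, and 829 of the 29269 merged regions met this rule. They lay on 660 host genes, out of 6822 genes methylated in all 6 lists (shared methylated genes) and 11225 genes named in any list. A further 433 regions had the same pattern on genes outside the shared set, so that BE-only regions numbered 1262 in all. The presence of peaks chose these regions, and their peak pattern and peak values are given as a description, without a test.

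Esophageal tissue came from rats that had undergone esophagoduodenostomy (EDA) surgery, which joins the duodenum to the esophagus and lets duodenal contents reach it, and from rats with no treatment. Each of the 2 states had 3 input libraries, which measure the RNA before immunoprecipitation, and 3 m6A-IP libraries, 12 libraries in all. The labels name no sham surgery, strain, age or time after surgery, and do not say that the replicates came from separate animals, so the p-values reflect only how these samples varied, which may be technical. Input libraries held 11213531 to 17471748 counts, and no depth is known for the IP libraries.

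N6-methyladenosine (m6A) is an internal modification of messenger RNA, laid down by a writer complex built around METTL3 and METTL14, removed by the erasers FTO and ALKBH5, and bound by reader proteins such as those of the YTH family. It typically lies near stop codons, in 3′ untranslated regions and in long internal exons, and readers tie it to splicing, export, translation and decay of the transcript. Barrett's esophagus is the replacement of the stratified squamous lining of the esophagus by columnar epithelium under chronic reflux.

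The markers of the tissue bear on how the groups can be read. Summed over 8 squamous markers, the input libraries held 55727 to 60209 CPM (counts per 1000000, with libraries scaled by TMM) in BE and 32753 to 44485 in NC. The 6 columnar markers found in the table, out of 8 listed, summed to 42.8 CPM in BE 1, to 3.38 and 1.29 in BE 2 and BE 3, and to at most 1.31 in NC, with 2 to 4 of them at 0 in each library. Markers of the columnar lining that the disease name describes were thus near 0 in BE 2 and BE 3. In BE 1, 4 of the 6 were at 0, and the same library held high hepatocyte markers (below). The source of its columnar sum was not tested. Striated muscle markers (8 of 8) summed to 2477 to 3478 CPM in BE and 52614 to 57327 in NC, and smooth muscle markers (4 of 5) to 172 to 250 and 1447 to 2168. Hepatocyte markers reached 6180 CPM in BE 1 and 11.2 to 18.3 in the other 5 libraries. Leukocyte markers overlapped between the groups, at 150 to 410 CPM in BE and 65.5 to 208 in NC. In bulk tissue, fewer cells of a type and less RNA per cell cannot be told apart, and the part of these shifts in the BE-only pattern was not tested.

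BE-only regions were a small class among the 22393 regions of the shared methylated genes. Regions found in all 6 lists were the most frequent pattern, at 11149. The 829 BE-only regions made up 3.70% of the regions, against 298 regions (1.33%) with the mirror pattern, a peak in all 3 NC lists and in no BE list. The NC-only regions lay on 245 genes. With peaks of at least 5-fold enrichment alone, the 2 classes held 456 and 293 regions, and with scores of at least 100 alone, 692 and 228. The BE lists were longer, with 20531, 19329 and 20462 peaks against 16644, 18864 and 17311 in NC. One step outside the rule stood 766 regions with a peak in all 3 BE lists and 1 NC list, and 1181 with a peak in 2 BE lists and no NC list. The single NC list was NC 2 in 354 of those 766 regions, NC 3 in 215 and NC 1 in 197, which follows the order of the lengths of the NC lists.

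**Figure D1:**
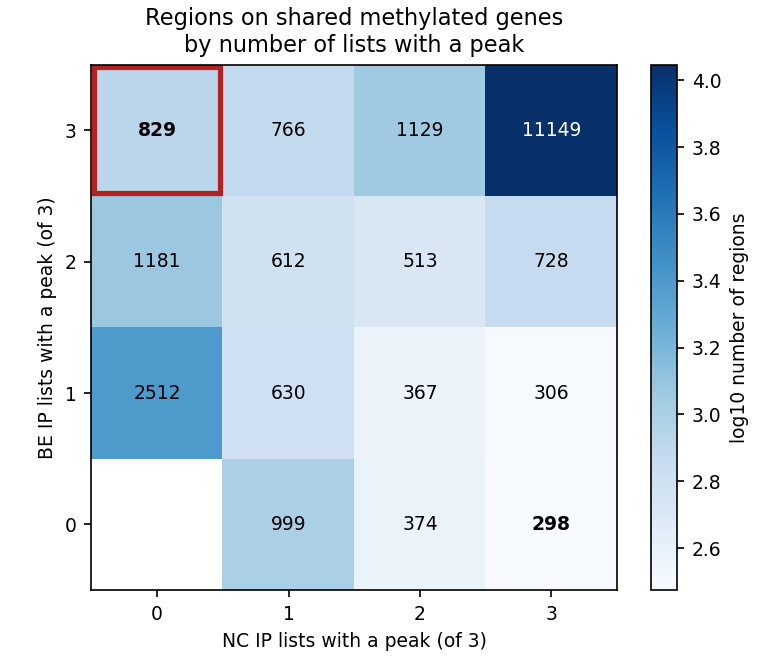
Number of merged regions on shared methylated genes by the number of BE lists (vertical axis) and NC lists (horizontal axis) with a peak, with colour on a log10 scale. The red frame marks the 829 BE-only regions, and the opposite corner holds 298 NC-only regions.

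Host genes had a median of 5 regions, 2 of them found in all 6 lists, against a median of 3 regions per shared gene, although the rule itself gives each host at least 2 regions. A single BE-only region lay on 538 hosts, 2 regions on 86, 3 on 27, 4 on 7 and 5 on 2. Regions were spread over all 21 chromosomes, with 94 on chromosome 1. On genes with at least 3 regions, 540 of 770 BE-only regions (70.1%) lay between other regions of their gene, against 56.8% of NC-only regions and 48% of the regions found in all 6 lists. By arithmetic a gene with more regions has a greater share of them between others, and the genes of the 3 classes had medians of 5, 4 and 3 regions. The nearest region found in all 6 lists was a median of 5004 bp away along the genome, with quartiles of 2415 and 11274 bp, and 50 BE-only regions lay on genes with no such region. For 28 of the 779 with a distance (3.59%) the gap was at most 1000 bp. Regions found in all 6 lists had a similar median distance to the next such region, 4686 bp, with 4.11% at most 1000 bp away. For NC-only regions the median was 9209 bp, with 5.90% at most 1000 bp away.

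BE-only regions were narrow. Their median width was 157 bp (quartiles 113 and 229 bp, range 18 to 3722 bp), close to the 170 bp of NC-only regions, whereas regions found in all 6 lists had a median of 495 bp. A width of 500 bp or more was reached by 41 BE-only regions (4.95%), by 20.5% of NC-only regions and by 49.7% of regions found in all 6 lists. The widest, 3722 bp, lay on Larp4b, which encodes an RNA-binding protein of the La-related family. The edges were identical to the base in all 3 BE lists for 775 of the 829 regions (93.5%), and in all 3 NC lists for 87.2% of NC-only regions. They were identical in all 6 lists for 79.6% of the regions found in all 6, where more lists have to match. The place of the modified base within a region was therefore not resolved.

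The fold enrichment of a peak is the authors' own value, given by their peak caller for each list, and is used only to describe and rank peaks within a list. The strongest peak of each BE-only region had a median fold enrichment of 6.09 in BE 1, 5.73 in BE 2 and 5.58 in BE 3, against 12.9, 14.3 and 13.3 for regions found in all 6 lists. Ranked within each list, the median BE-only region stood at the 29.3rd, 21.3rd and 24.7th percentile, and the median region found in all 6 lists at the 69.0th, 68.1st and 69.6th. NC-only regions stood similarly low in the NC lists, with medians at the 31.8th, 37.6th and 29.2nd percentile. The fold enrichment of BE-only regions ranged from 2.25 to 43.3 over the 3 BE lists, and their coefficient of variation between these lists had a median of 20.7%. On 60 hosts (9.09%) the strongest region in BE was itself a BE-only region.

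**Figure D2:**
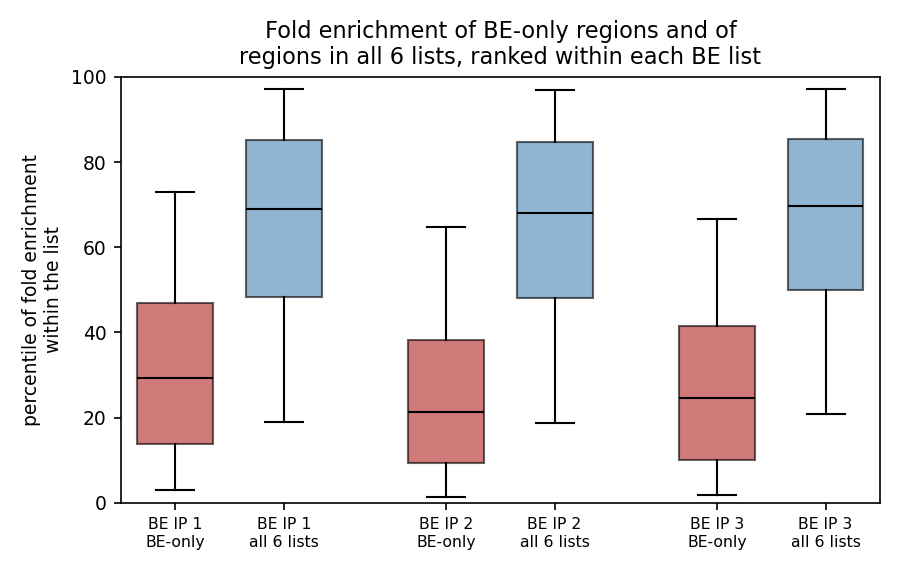
Percentile of the authors' fold enrichment within each BE list for the 829 BE-only regions (red) and the 11149 regions found in all 6 lists (blue), with boxes at the quartiles, lines at the median and whiskers at the 5th and 95th percentiles. The BE-only medians lie between 21.3 and 29.3 and the others between 68.1 and 69.6.

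Many BE-only regions stood close to the limit of the lists. All 6 lists ended at a deposited score of about 50, and the lowest of a region's 3 BE scores was under 60 for 145 of the 829 regions and under 100 for 449 (54.2%), against 6.43% of the regions found in all 6 lists. The weakest, on Pdcd11, a factor of ribosome biogenesis, had a lowest score of 50.2. Just outside the rule, the single NC peak of the 766 regions with a peak in all 3 BE lists and 1 NC list had a median score of 92.1, and 417 of those peaks (54.4%) scored under 100. An entry missing from an NC list is not a measured level of 0, since the lists hold only peaks above that limit.

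A BE-only region chosen without 1 BE list and 1 NC list was more often found in the left-out BE list than in the left-out NC list, in each of the 9 pairs of lists that can be left out. The rule then chose 1430 to 1833 regions. A peak was present in the left-out BE list for 64.7% to 73.8% of them (mean 69.7%, SD 3.75 over the 9 pairs), and in the left-out NC list for 15.5% to 28.7% (mean 20.2%, SD 5.15). The mirror rule chose 517 to 670 NC-only regions, of which 63.4% to 78.7% had a peak in the left-out NC list and 21.1% to 29.5% in the left-out BE list. The pairs share libraries, so no p is given. The 2 sets of shares did not overlap. The left-out lists are among those that chose the BE-only regions. The shares therefore describe the peak pattern again and are no independent check of it. Peaks were also more frequent in the BE lists in general. Of the 22393 regions on shared genes, 16699 to 17424 had a peak in a given BE list and 14552 to 15798 in a given NC list.

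**Figure D3:**
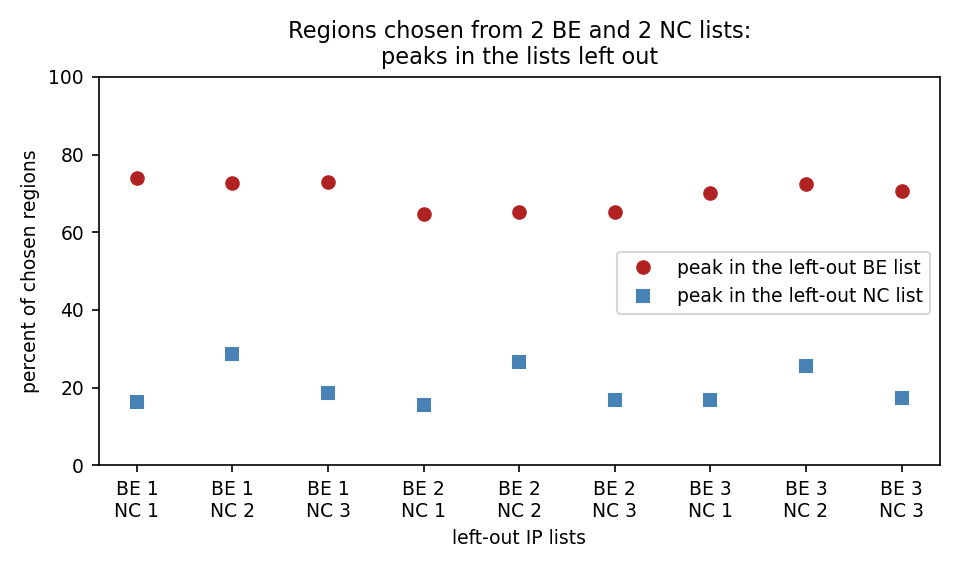
Percent of the regions chosen from 2 BE and 2 NC lists that had a peak in the left-out BE list (red circles) or the left-out NC list (blue squares), for each of the 9 pairs. All red points lie at 64.7 or above and all blue points at 28.7 or below.

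The input RNA of the host genes was higher in BE more often than that of shared genes in general. Of 660 hosts, 629 passed the filter on low counts. In edgeR's quasi-likelihood test, fitted over all 13761 genes that passed and adjusted by Benjamini-Hochberg with a threshold of 0.05, 239 hosts (38.0%) rose in BE, 106 (16.9%) fell and 284 did not pass, beside backgrounds of 21.8% of all genes tested for higher and 21.8% for lower. Among the 6395 shared genes tested, the shares were 21.1% and 23.0%. The median log2 fold change was 0.32 for the hosts and -0.01 for the shared genes. The sets also differed in level, with median input of 50.7 CPM in BE and 39.0 in NC for the hosts, against 26.0 and 27.2 for the shared genes. With libraries scaled by their totals alone, the median of all genes tested moved from 0.03 to 0.32 on the log2 scale, 338 hosts (53.7%) rose and 74 (11.8%) fell. A change under 2-fold in either direction was found for 434 of the 629 hosts tested. Past the threshold, 129 hosts rose and 46 fell by 2-fold or more. For the 6395 shared genes tested, the same counts were 4783, 556 and 851. As a share of the genes tested, such rises were thus more frequent among the hosts and such falls less frequent.

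Seen from the other side, a BE-only region lay on 9.67% of the shared genes. It lay on 239 of the 1347 shared genes that rose (17.7%), on 7.94% of those that did not pass and on 7.21% of those that fell. Hosts of NC-only regions went the other way: of 240 tested, 137 (57.1%) fell and 36 (15.0%) rose, with a median log2 fold change of -1.45. An NC-only region lay on 3.59% of shared genes, on 9.31% of those that fell and on 2.67% of those that rose. Expression and peak calling come from the same tissues, and a peak caller needs reads to call a peak. The part of input coverage in the BE-only pattern was not tested.

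**Figure D4:**
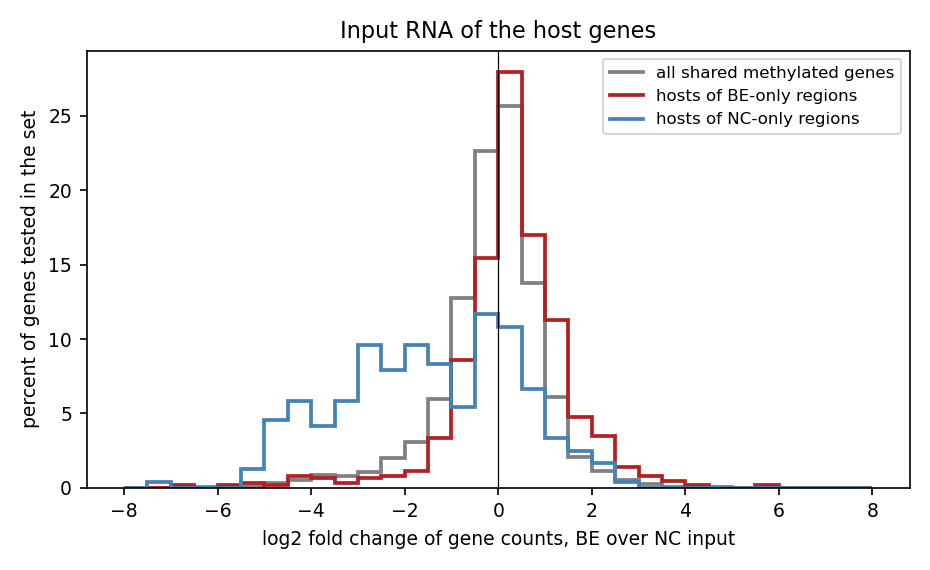
Distribution of the log2 fold change of input counts, BE over NC, as percent of the genes tested, for all shared methylated genes (grey), hosts of BE-only regions (red) and hosts of NC-only regions (blue). The red curve is shifted to the right (median 0.32) and the blue to the left (median -1.45).

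The 10 strongest BE-only regions on hosts whose RNA changed by less than 2-fold, with at least 5 CPM in both groups were on Fig4, Brd3, Mphosph10, E2f3, Pkp4, Fzr1, Sh2b1, Rnf139, Pard6b and Sumf2. Strength here is the lowest of a region's 3 within-list percentiles. Positions are given in the authors' coordinates, and count from 1 if the lists themselves count from 0. The sources used here do not name the genome build. Fold enrichments are given in the order BE 1, BE 2 and BE 3 throughout. The strongest was a 153 bp region on Fig4, a phosphoinositide phosphatase of endosomes and lysosomes, at chr20:47701168-47701320, with fold enrichments of 37.0, 22.8 and 43.3. Fig4 input was 22.9, 27.0 and 17.9 CPM in BE and 41.5, 24.1 and 29.9 in NC, with overlapping groups (log2 fold change -0.49, SE 0.24, adjusted p = 0.122 by edgeR's quasi-likelihood test with Benjamini-Hochberg adjustment). At a distance of 369 bp on the same gene lay an NC-only region, chr20:47700701-47700798, with fold enrichments of 40.7, 59.7 and 51.5 in NC 1 to 3. The only region of Fig4 found in all 6 lists was 75021 bp away.

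Brd3, a BET family protein that binds acetylated histones, held 3 BE-only regions, the strongest at chr3:11359761-11359886 with fold enrichments of 28.6, 24.6 and 15.3. Its input was 38.3, 25.7 and 33.1 CPM in BE and 55.1, 51.8 and 46.0 in NC, with every BE value below every NC value. The gene fell by 0.65 on the log2 scale (SE 0.17, adjusted p = 0.0106 by edgeR's quasi-likelihood test with Benjamini-Hochberg adjustment), a call that ended with total-count scaling (adjusted p = 0.088). A region of Brd3 with a peak in at least 1 NC list lay 623 bp from its strongest BE-only region.

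Mphosph10, a component of the U3 small nucleolar ribonucleoprotein that processes ribosomal RNA, carried a 266 bp region at chr1:126321919-126322184 with fold enrichments of 19.6, 19.9 and 15.2. Input was 53.3, 63.8 and 67.7 CPM in BE and 42.3, 38.9 and 35.1 in NC, and the groups did not overlap (log2 fold change 0.67, SE 0.14, adjusted p = 0.00383, edgeR's quasi-likelihood test with Benjamini-Hochberg adjustment). An NC-only region lay 361 bp away. E2f3, an activating transcription factor of the G1 to S transition, had 2 BE-only regions, the stronger at chr17:37642240-37642627 with fold enrichments of 13.8, 20.1 and 18. E2f3 input was 15.4, 13.2 and 12 CPM in BE and 9.76, 12 and 7.76 in NC, values that met near 12, and the gene did not pass the test (adjusted p = 0.176 by edgeR's quasi-likelihood test with Benjamini-Hochberg adjustment, 0.0295 with total-count scaling). No NC peak lay within 69820 bp of that region.

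Pkp4, a plakophilin-related armadillo protein of cell junctions, carried a region at chr3:50491580-50491799 with fold enrichments of 15.7, 15.5 and 14.9, the most even of the 10 over the 3 lists. Its input was 88.4, 74.2 and 74.4 CPM in BE and 55.1, 51.7 and 41.2 in NC, without overlap (log2 fold change 0.68, SE 0.15, adjusted p = 0.00386, edgeR's quasi-likelihood test with Benjamini-Hochberg adjustment). Pard6b, a member of the PAR polarity complex, carried a 302 bp region with fold enrichments of 13.2, 10.6 and 12.4. Fzr1, a coactivator of the anaphase-promoting complex, had only 2 regions, 1 BE-only (15.1, 13.5 and 14.2) and 1 NC-only, 817 bp apart and none found in all 6 lists. On Rnf139, an ubiquitin ligase of the endoplasmic reticulum, the BE-only region (14.8, 11.3 and 12) was 1 of 2. The remaining regions lay on Sh2b1, an adaptor of receptor tyrosine kinases (17.0, 12.8 and 11.3), and on Sumf2, a sulfatase modifying factor paralog (9.41, 16.7 and 11.1), with fold enrichments in brackets. The input of Pard6b, Fzr1, Rnf139, Sh2b1 and Sumf2 did not pass the test, with log2 fold changes between -0.39 and 0.80. With total-count scaling Rnf139 and Sumf2 passed, as higher in BE.

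Among hosts that rose at least 2-fold, the 4 strongest BE-only regions were on Ticrr, Pla2g4f, Incenp and Hus1. Ticrr, which is needed to start DNA replication, carried the strongest region of all 829, at chr1:142390785-142392891, with fold enrichments of 29.5, 42.2 and 38.3. Ticrr input was 26.5, 32.8 and 28.1 CPM in BE and 4.83, 6.72 and 5.53 in NC, far apart (log2 fold change 2.35, SE 0.22, adjusted p = 2.24e-05 by edgeR's quasi-likelihood test with Benjamini-Hochberg adjustment). The region was 2107 bp wide and a peak of at least 1 NC list began 112 bp from its edge. Hus1, a subunit of the clamp that signals DNA damage, carried a 1298 bp region at chr14:88993025-88994322 with fold enrichments of 17.1, 20.7 and 17.3, 168 bp from an NC-only region. Its input was 44.4, 43.0 and 40.6 CPM in BE and 19.7, 24.4 and 17.5 in NC (log2 fold change 1.05, SE 0.17). Incenp, a subunit of the chromosomal passenger complex, carried a region at chr1:232876351-232876501 with fold enrichments of 20.4, 22.6 and 22.5, 454 bp from an NC-only region. Incenp input was 46.9, 67.8 and 52.5 CPM in BE and 18.9, 21.6 and 14.7 in NC (log2 fold change 1.60, SE 0.20). The fourth, Pla2g4f, is a cytosolic phospholipase A2, with fold enrichments of 23.1, 30.7 and 24.1 at chr3:118622013-118622235. Its input was 194, 319 and 253 CPM in BE and 66.2, 72.6 and 65.1 in NC (log2 fold change 1.91, SE 0.17). An NC-only region of Pla2g4f lay 3834 bp away, with fold enrichments of 54.8, 38.4 and 50.45 in NC 1 to 3. In none of these 4 genes did the BE and NC input values overlap, which adds nothing, since they were chosen for a rise in the same libraries.

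Of the 4 strongest regions on hosts that fell at least 2-fold, 3 lay on muscle genes. Apobec2, a cytidine deaminase family member expressed in skeletal and heart muscle, carried a region at chr9:13464854-13465233 with fold enrichments of 27.4, 40.0 and 42.4, while its input was 12.3, 8.20 and 13.9 CPM in BE and 756, 708 and 585 in NC (log2 fold change -5.90, SE 0.23, adjusted p = 3.15e-07 by edgeR's quasi-likelihood test with Benjamini-Hochberg adjustment). Tnnt3, fast skeletal troponin T, held 3 BE-only regions, of 18, 18 and 117 bp, the strongest at chr1:222573958-222574074 with fold enrichments of 34.8, 30.4 and 34.5, and 1 NC-only region 4105 bp away. Its input was 110, 100 and 143 CPM in BE and 2861, 2529 and 2376 in NC. Myh8, a skeletal muscle myosin heavy chain, held 3, the strongest 42 bp wide with fold enrichments of 23.4, 22.9 and 33.0, with input of 830, 580 and 1249 CPM in BE and 35485, 31289 and 26466 in NC. In all 3 genes the lowest NC level stood far above the highest BE level. They were chosen for a fall in these same input libraries and for peaks listed in BE only. Myosin genes are near-identical paralogs and the handling of shared reads is not given, so that the assignment of reads and peaks among them is uncertain. The fourth, Pacs2, which sorts membrane proteins between endoplasmic reticulum and mitochondria, is not a muscle gene, with fold enrichments of 17.8, 29.6 and 19.1 and input of 23.4, 21.6 and 22.3 CPM in BE against 46.8, 51.6 and 39.0 in NC.

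**Figure D5:**
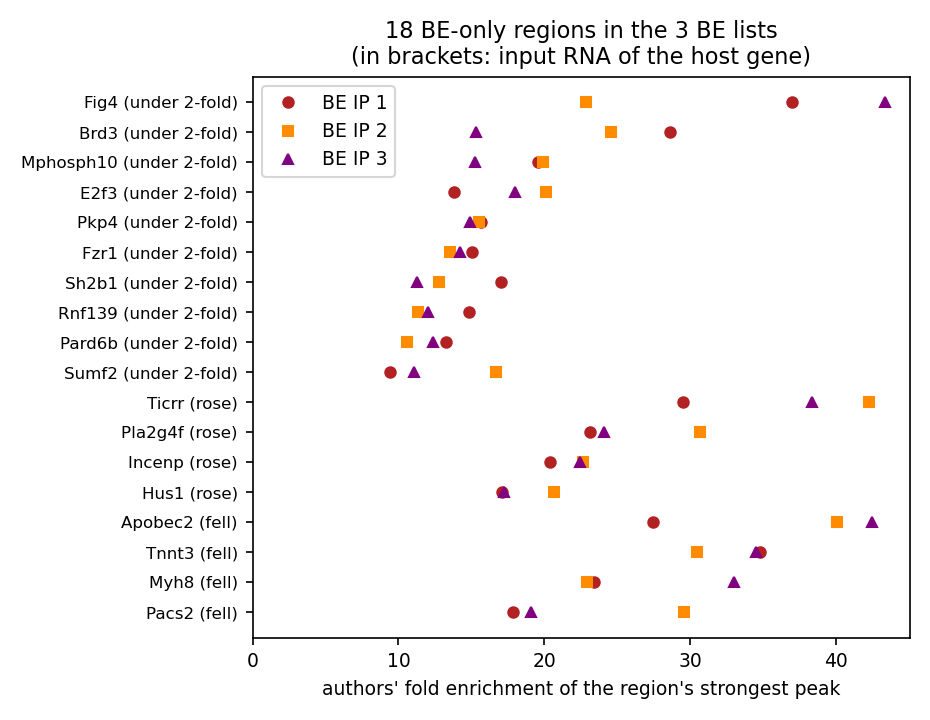
The authors' fold enrichment in BE 1, BE 2 and BE 3 (symbols) of the 18 strongest BE-only regions by the change of the host's input RNA. Fold enrichments run from 9.41 on Sumf2 to 43.3 on Fig4, and no NC value exists because no NC list holds a peak there.

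A BE-only and an NC-only region lay on the same gene for 28 hosts, 4.24% of the hosts of BE-only regions and 11.4% of the hosts of NC-only regions, where 3.59% of shared genes held an NC-only region. The median distance between the pair was 2702 bp. On 8 genes it was under 500 bp, namely Hus1 (168 bp), Cherp (262), Mphosph10 (361), Fig4 (369), Psd4 (418), Baz1a (435), Incenp (454) and Ahi1 (461). Within any single list, neighbouring peaks of a gene lay under 500 bp apart in 0.409% to 1.19% of cases. In all, 17 of the 829 BE-only regions (2.05%) were under 500 bp from a peak of an NC list, and 6 of the 53 regions above the 50th percentile in every BE list were. Whether such pairs are parts of 1 site was not tested.

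The regions on the 4 hosts named for holding the most were mostly weak. Hnrnpm, a splicing regulator, held 5, of which 1 at chr7:18716765-18716858 had fold enrichments of 8.28, 8.56 and 8.38, and the other 4 reached at most 4.37. Its input was 205, 235 and 209 CPM in BE and 141, 143 and 132 in NC, without overlap (log2 fold change 0.64, SE 0.10, adjusted p = 0.000723 by edgeR's quasi-likelihood test with Benjamini-Hochberg adjustment). Myo9b, an unconventional myosin, also held 5, with fold enrichments between 2.86 and 10.6. Cenpe, a kinetochore kinesin, held 4 BE-only regions and 1 NC-only region, and its input was 81.8, 105 and 121 CPM in BE against 35.1, 24.4 and 27.9 in NC (log2 fold change 1.82, SE 0.18). Cep250, a centrosome linker protein, held 4 with fold enrichments between 3.56 and 7.86, and its input did not pass the test (log2 fold change 0.30, SE 0.19).

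Hosts were then read through 13 gene lists, counted among the shared methylated genes. The lists were chosen with earlier results of these data known. Hosts in general also had more regions and a higher input level than shared genes (values above). The shares of each list are therefore descriptions, without a test. In cell adhesion and basement membrane, 9 of 22 shared genes held BE-only regions, 14 regions in all, beside 9.67% of all shared genes. Among them were the laminin chain Lamb3, the integrins Itga3 and Itga6, the hemidesmosomal plakin Dst, the catenin Ctnna1, and Cldn1 and Ocln of tight junctions. Input rose for 7 of these 9 hosts, Dst fell and Ocln did not pass the test, where 21.1% of all shared genes tested rose. The median log2 fold change was 1.25 for the hosts, beside 0.81 for all shared genes of the list that were tested. Lamb3 input was 55.8, 60.7 and 60.7 CPM in BE and 22.1, 28.2 and 20.3 in NC, and its region had fold enrichments of 9.58, 8.08 and 7.86. Lamb3 rose, with a log2 fold change of 1.33 (SE 0.16) and no overlap between the groups. Dst input was 1014, 1098 and 1277 CPM in BE and 2816, 2470 and 2407 in NC, with 3 BE-only regions among 24. Of the squamous differentiation list, 1 of 17 shared genes was a host, the keratin Krt80, whose region had fold enrichments of 11.5, 10.4 and 10.2 and whose input fell by 1.18 on the log2 scale (SE 0.17).

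In the cell cycle list, 5 of 9 shared genes were hosts, beside 9.67% of all shared genes. These hosts, with 9 regions, were Mki67, Rrm1, Cenpe, Cenpf and E2f3. The first 4 rose in BE input and E2f3 did not pass the test, where 21.1% of all shared genes tested rose. The named regions of these 4 were weaker than that of E2f3. The list's hosts had a median log2 fold change of 1.33, the same as all shared genes of the list that were tested. Cenpf, a kinetochore protein, held 1 BE-only region among 16, with fold enrichments of 6.79, 4.58 and 4.06, and the region of the proliferation marker Mki67 had 3.14, 3.45 and 4.28. Ribonucleotide reductase subunit Rrm1 had 5.43, 3.56 and 4.60.

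Among chromatin regulators, 12 of 52 shared genes (23.1%) were hosts, with 20 regions, beside 9.67% of all shared genes. None of the 52 held an NC-only region, beside 3.59% of all shared genes, as was also the case for the lists of Wnt and related signalling, m6A machinery, extracellular matrix and inflammation. Among them were the BET proteins Brd2 and Brd3, the remodellers Smarca4, Chd1, Chd7 and Chd8, the histone methyltransferases Kmt2c and Setd2, and the demethylases Kdm2a and Kdm2b. Input rose for 2 of them, fell for 3 and did not pass for 6, and Setd2 was not tested. These shares, 18.2% and 27.3% of those tested, were near the 21.1% and 23.0% of all shared genes tested. With total-count scaling 6 rose and 1 fell, so the direction of this group depends on the scaling. Smarca4, the ATPase of BAF complexes, held 3, the strongest at chr8:22725809-22725982 with fold enrichments of 15.8, 8.29 and 7.71. Its input was 176, 203 and 188 CPM in BE and 172, 147 and 149 in NC, without overlap but not past the threshold (log2 fold change 0.28, SE 0.11, adjusted p = 0.0671 by edgeR's quasi-likelihood test with Benjamini-Hochberg adjustment). It passed without BE input 1 (adjusted p = 0.0262) and with total-count scaling (0.002). The 2 regions of Brd2, both 678 bp wide, began at 5990110 and 7329714 of chromosome 20, with nearly the same fold enrichments (5.80, 5.17 and 6.32, and 5.72, 5.2 and 6.13). Whether they are copies of 1 sequence was not tested.

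The m6A machinery itself was represented by 2 of 15 shared genes (13.3%), beside 9.67% of all shared genes. Zc3h13, a subunit of the writer complex, held 2 BE-only regions among 15, the stronger with fold enrichments of 7.90, 6.09 and 4.51. Its input was 99.5, 127 and 130 CPM in BE and 108, 113 and 108 in NC, which overlapped. Ythdf3, a cytoplasmic reader, held 1 region with fold enrichments of 5.78, 3.40 and 4.23, and its input, 182, 191 and 223 CPM in BE against 197, 174 and 169 in NC, overlapped. Neither gene passed the test (log2 fold changes 0.11 and 0.15), and both passed as higher with total-count scaling.

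Signalling genes with BE-only regions were 5 of 36 in receptor tyrosine kinase signalling (Igf1r, Nrg1, Grb2, Dusp5 and Spred1) and 5 of 44 in Wnt, Notch, Hedgehog, Hippo and TGF-beta signalling (Maml1, Axin1, Wnt5a, Wnt10a and Bmp2). These shares were 13.9% and 11.4%, beside 9.67% of all shared genes. In each list 2 hosts rose, none fell and 3 did not pass, where 21.1% of all shared genes tested rose and 23.0% fell. With total-count scaling 4 of 5 rose in each. The ErbB ligand Nrg1 had the strongest region of the first list, at chr16:63576382-63576559, with fold enrichments of 17.4, 29.6 and 13.2. Its input was 76.3, 83.0 and 55.9 CPM in BE and 4.73, 13.9 and 8.12 in NC (log2 fold change 2.99, SE 0.39), far apart. Igf1r, the receptor of insulin-like growth factor, had fold enrichments of 18.3, 9.37 and 8.48, highest in BE 1. Spred1, an inhibitor of Ras signalling, had 12.5, 7.82 and 8.35 in a region of 32 bp. Of the Wnt genes, the ligand Wnt10a had 10.8, 10.2 and 5.48 and rose in input (log2 fold change 1.25, SE 0.28), and Axin1, a scaffold of the complex that degrades beta-catenin, had 4.65, 6.65 and 5.38. The Notch coactivator Maml1 had 8.51, 6.07 and 5.83.

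Transcription factors held BE-only regions on 5 of 49 shared genes (Egr3, Grhl2, Ets1, Elf3 and Zeb2). That share of 10.2% was close to the 9.67% of all shared genes. Elf3, an epithelial ETS factor, had fold enrichments of 8.0, 5.54 and 7.49, with input of 73.2, 77.3 and 48.3 CPM in BE and 4.22, 4.70 and 6.46 in NC (log2 fold change 3.68, SE 0.25). Zeb2, a repressor of epithelial genes, had 4.77, 4.73 and 4.37, with input of 62.1, 54.7 and 68.9 CPM in BE and 195, 190 and 200 in NC (log2 fold change -1.65, SE 0.12). Input of these 2 hosts moved in opposite directions, and its part in the BE-only pattern was not tested. The Zeb2 region stood near the limit of the lists, with scores of 66.2, 53.8 and 84.4. It lay 697 bp from a region found in all 6 lists. Egr3, an immediate early factor, had 7.0, 6.18 and 6.35, and its input overlapped between the groups.

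The striated and smooth muscle list had 10 hosts among 24 shared genes (41.7%), beside 9.67% of all shared genes. These hosts held 16 BE-only regions, and among them were Myh1, Myh2, Myh4, Ttn, Neb, Ryr1, Tnnt3, Tpm1 and Pdlim7. Input fell for 8 of them and did not pass for 2, where 23.0% of all shared genes tested fell. The list's hosts had a median log2 fold change of -4.03, beside -3.89 for all shared genes of the list that were tested. NC-only regions lay on 3 of the 24 (Tnnt3, Synpo2 and Myom1). Ttn, the giant spring protein of the sarcomere, had a region at chr3:70264102-70264188 with fold enrichments of 13.2, 12.6 and 17.1, with input of 1202, 1431 and 1730 CPM in BE and 33680, 28000 and 29701 in NC. Tpm1, a tropomyosin, had fold enrichments of 16.8, 13.7 and 10.5, with input of 202, 205 and 262 CPM in BE and 3195, 2748 and 2651 in NC. Smooth and striated muscle markers were also lower in BE (values above). Myh1, Myh4, Tnnt3 and Ttn are both hosts and striated muscle markers here, so the falls of hosts and markers are in part those of the same genes. The part of these shifts in the BE-only pattern was not tested.

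The other lists held 2 hosts or none. In the extracellular matrix and ubiquitin lists, 8.70% of the shared genes were hosts, close to the 9.67% of all shared genes. The extracellular matrix list had 2 of 23, Col6a3, a chain of type VI collagen (6.34, 8.73 and 8.35), whose input fell, and Thbs2, a matricellular thrombospondin (8.02, 5.07 and 4.51), whose input rose. The ubiquitin list had 2 of 23, the ubiquitin ligase subunit Fbxw7 (4.45, 6.97 and 6.67) and the deubiquitinase Usp47 (5.87, 5.84 and 3.27), both lower in BE input, a call that Usp47 lost with total-count scaling (adjusted p = 0.0657 by edgeR's quasi-likelihood test with Benjamini-Hochberg adjustment). None of 14 shared genes of inflammation and NF-kB signalling was a host, beside 9.67% of all shared genes, a share at which few hosts would be found among so few genes. No gene of the hepatocyte list was a shared methylated gene.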

How the data were processed

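Rat esophageal RNA was profiled in 12 libraries, 3 per group. The submitters' processing notes name cutadapt 1.9.3, a read trimmer, and HISAT2 2.0.4, an aligner. The sources used here do not name the peak caller, its control, the build, the annotation, or how genes were counted and whether strand was used. The authors deposited 1 peak list per IP library, with a score and a fold enrichment (a ratio) per peak. The authors also deposited whole-number counts per gene for the 6 input libraries, per the file headers. Another 6 per-sample columns of that table were not used.

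Peaks sharing 1 bp or more were joined into regions over the 6 lists. Members and gene lists were chosen with earlier results of these data known. Peak lists were compared without a test. Counts were tested with edgeR 4.0.16 (R 4.3.3; filterByExpr, TMM, robust quasi-likelihood fit, Benjamini-Hochberg over all genes tested), BE against NC input, after a test on simulated counts. CPM are counts per 1000000 of TMM-scaled libraries. Of 660 hosts, 641 were in the table by symbol; where a symbol had several rows, the row with the most counts was used. Named genes were the 10 strongest regions on hosts changed under 2-fold, the 4 strongest each on hosts that rose and fell at least 2-fold, up to 4 hosts with the most regions, and up to 3 regions per list. Other genes were named from the lists or as extremes, after their values were seen. Results for some genes that the rule names are not reported here. DESeq2 1.42.0, other scalings, no filter, leaving out each library and the replicate block were tried. No genome of the files' build was used, so place in the transcript, sequence and motifs of the regions were not analysed here. Python 3.11.15 with pandas 2.3.3 and NumPy 2.4.6 was used for peaks.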

Additional observations from a re-analysis of the deposited data

How the results depend on the processing

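The count of 829 BE-only regions stayed within 1.5 times under joining by at least 50% of the shorter peak, joining peaks up to 100 bp apart, a distance of at least 200, 500 or 1000 bp from every NC peak (the last 2 chosen after seeing the data; lowest 742), and a score of at least 100 in all lists, which gave 692 regions of which 353 were among the 829. It moved to 456 with a fold enrichment of at least 5 (338 of them among the 829; NC-only regions then numbered 293) and to 380 with a score of at least 100 in BE lists only. Leaving out 1 IP list gave 1056 to 1328 regions, all 829 among them, since fewer lists decide the pattern; the highest count was without BE IP 2. Hosts higher and lower numbered 239 and 115 with DESeq2, 236 and 110 with RLE factors, and 234 and 100 without the filter; leaving out each input library gave 209 to 249 and 90 to 106. Total-count scaling, chosen after seeing the data, moved the count of all genes called higher from 2999 to 4536. With the replicate block, hosts higher and lower numbered 216 and 96. Same-numbered BE and NC inputs had correlations of -0.04, 0.01 and -0.07 in their deviations from the group means. Differently numbered inputs had -0.03 to 0.07. With 3 libraries per group, these values cannot decide whether the numbers pair the samples. Outside total-count scaling, under which 10 named genes gained a call (among them E2f3, Rnf139, Sumf2, Cep250, Igf1r, Axin1, Smarca4, Zc3h13, Ythdf3) and Brd3 and Usp47 lost theirs, 3 named calls changed, all gained: Sh2b1 with RLE factors (log2 fold change -0.42), Sumf2 without BE input 2 (0.96) and Smarca4 without BE input 1 (0.35). The deposited scores end near 50 and the IP depth is unknown, so the absence of a peak in NC bounds no level of methylation.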
